A study of Mus musculus with 18 samples.

Results

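The experiment asked how the transcriptional response to doxycycline (Dox) changed between mouse embryonic stem cells and the gastruloids grown from them. The quantity examined is a difference of differences: the log2 ratio of Dox to control libraries at day 5 minus the same log2 ratio at day 0, fitted for each gene on the 12 day 0 and day 5 libraries of the 18 in the series. It is called the interaction here. A gene was called when its interaction had an adjusted p below 0.05, and "higher" or "lower" means that the Dox response was more positive or more negative at day 5 than at day 0. By this rule 219 of 17212 genes tested were called.

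The cells were the mouse embryonic stem cell line RHKI, derived from E14Tg2a, and every library, controls included, came from cells with the HA-Rnaseh1 knock-in, so that no group lacked the transgene. The groups were day 0 control, day 0 Dox, day 5 control and day 5 Dox, with 3 libraries each, numbered 1 to 3 under a batch label. The Dox groups received 500 ng/ml doxycycline for 48 h and the cells were then used for gastruloid differentiation. Stem cells had been kept in 2i/LIF medium that held 2% FBS, the GSK3 inhibitor CHIR-99021 at 3 µM and the MEK inhibitor PD0325901 at 1 µM, and day 5 stands for 120 h. The labels do not say whether Dox was present during differentiation, how many clones the line represents, or whether the numbered libraries were separate cultures, and the p-values therefore reflect only how these libraries scattered.

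RNase H1 digests the RNA strand of RNA:DNA hybrids and is widely used to remove R-loops, the three-stranded structures in which nascent RNA pairs with its template. Gastruloids are aggregates of stem cells that elongate and form tissues resembling parts of the post-implantation embryo, including neural tube and somites. Several of the genes described below belong to programmes that cells adjust to nutrients and stress: the integrated stress response, in which the transcription factor ATF4 turns on amino acid synthesis, amino acid import and tRNA charging, and the lysosomal programme of TFEB and its relatives, which bind a palindromic element in promoters of lysosomal genes.

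Summed expected counts ranged from 25748874 to 37392993 over the 12 libraries. The stem cell label is also on the gastruloid libraries: Pou5f1, a defining pluripotency factor, was at 1180, 1280 and 1130 CPM (counts scaled to a common library size) in the day 0 controls and at 4.01, 3.66 and 1.74 CPM in the day 5 controls. The summed level of 20 neural progenitor genes ran from 719 to 769 CPM in the day 0 controls and from 3630 to 3820 CPM in the day 5 controls. The library of day 0 Dox number 2 stood apart, with 4.76% of its counts assigned to CT010467.1, a ribosomal RNA gene, where the remaining 11 had 0.144% to 0.401%, and a summed level of 144 CPM over the replication-dependent histone genes against 28.5 to 61.2 CPM. Without that library 144 genes were called instead of 219. Some results below, but not all, are also given without it, and some day 0 list medians are given by replicate number.

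The labels were checked on the induced gene. Rnaseh1 (chr12:28649602-28659589, + strand, GRCm38) was at 25.5, 30.1 and 28.1 CPM in the day 0 controls and at 169, 136 and 147 CPM in the day 0 Dox libraries. In the day 5 controls it was at 19.1, 19.7 and 19.3 CPM and in the day 5 Dox libraries at 53.2, 56.5 and 59.4 CPM. All Dox libraries lay above all controls at both days, and the response was smaller at day 5: 2.43 (SE 0.087, edgeR adjusted p = 3.35e-09) at day 0, 1.54 (SE 0.087, edgeR adjusted p = 1.13e-06) at day 5, and an interaction of -0.89 (SE 0.12, edgeR adjusted p = 0.00494). Hprt (chrX:52988137-53021659, + strand), annotated as a purine salvage enzyme, had the same pattern. Counts per gene do not show where in the locus its reads lay, and whether a working enzyme was made was not tested. Hprt was at 11.4, 13.1 and 12 CPM in day 0 controls and 374, 293 and 323 CPM in day 0 Dox libraries. At day 5 it was at 19.9, 20.8 and 19.9 CPM in controls and 179, 205 and 205 CPM in Dox libraries, and its interaction was -1.47 (SE 0.13, edgeR adjusted p = 0.00026). These were the only called genes whose Dox response passed the threshold at both days in the same direction, and both interactions were called whichever of the 12 libraries was left out.

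Of the 17212 genes tested, 122 were called higher (0.709%) and 97 lower (0.564%), together 1.27%, by edgeR's quasi-likelihood test with Benjamini-Hochberg adjustment. Within each day the Dox response itself was called for 22 genes at day 0 (0.128%; 14 of them lower, 0.0813%) and for 473 at day 5 (2.75%). These counts ignore the shared replicate numbers and depend on the fit. Pairing libraries by number gave 145 calls at day 0 and 722 at day 5. Pairing them separately in each day gave 374 and 1147. The DESeq2 package, without pairing, gave 228 and 905. With 1 library left out, day 0 calls ranged from 5 to 54. Day 5 calls outnumbered day 0 calls in each of these fits. The 219 genes were sorted by their day 0 and day 5 responses in the first fit, without pairing. In 138 genes the response was called at day 5 and not at day 0 ("appearing", 67 higher and 71 lower). In 8 it was called at day 0 and not at day 5 ("fading"), and in 2 it was called at both days with opposite signs ("reversing"). Rnaseh1 and Hprt made up the class with 1 sign at both days, and in the remaining 69 neither day's response was called. An appearing gene missed the threshold at day 0, which does not show that stem cells lacked a response. With libraries paired by number, for example, Epha7 and Psat1 of that class were also called at day 0 (edgeR adjusted p = 0.0461 and 0.0216). Of the 219 genes, 204 had at least 1 CPM in the mean of a group at both days. Opposite signs at the 2 days were seen in 195 of 219 called genes and in 51.7% of all genes, a feature that the contrast favours and that was not tested. In bulk RNA, fewer cells of a type and less RNA per cell cannot be told apart.

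**Figure D1:**
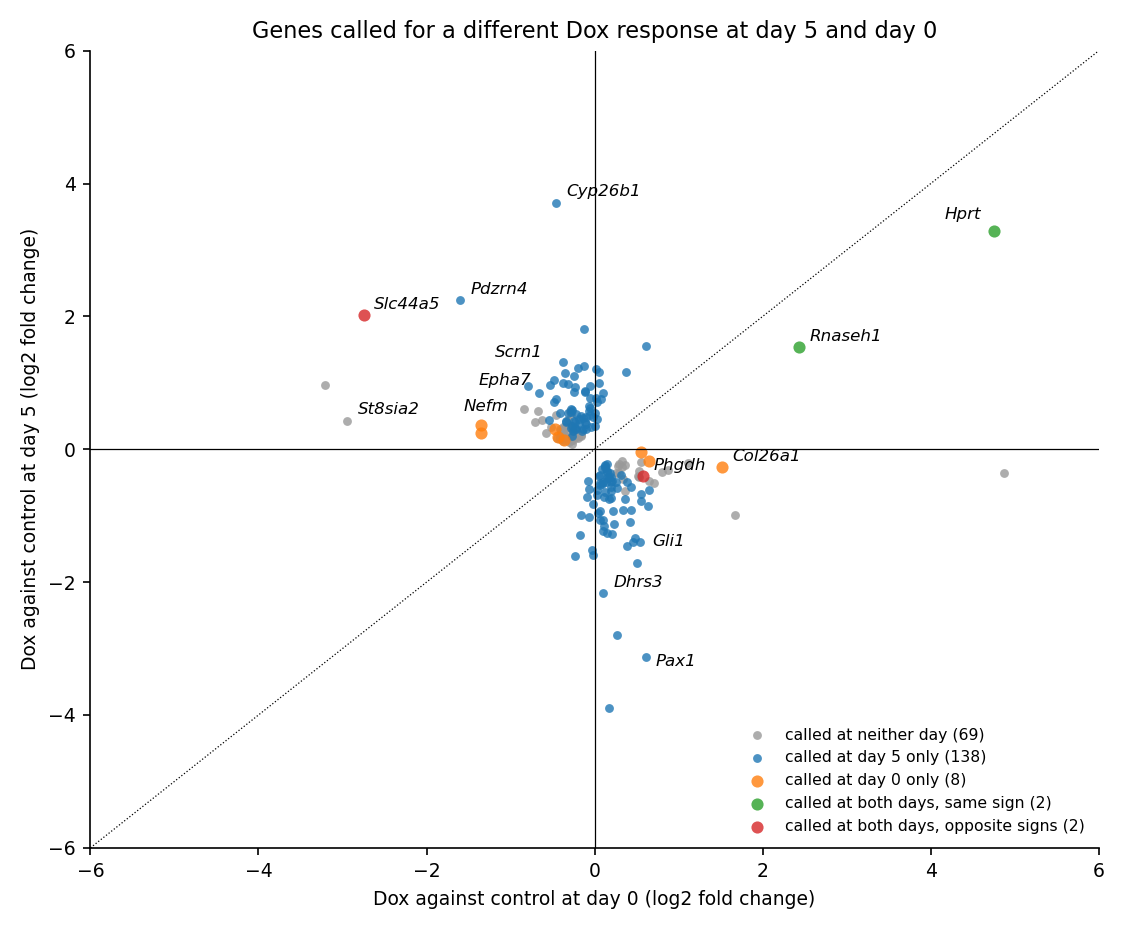
Log2 ratio of Dox to control at day 0 (x axis) against day 5 (y axis) for the 219 genes called in the interaction, coloured by class. Slc44a5 lies at -2.75 and 2.02, and Rnaseh1 and Hprt lie in the quadrant where both responses were positive.

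The number of calls depended on single libraries and on whether the shared batch number entered the fit. Leaving out day 5 Dox 3 left 42 calls, day 5 Dox 2 left 48, day 5 control 3 left 51, day 5 control 2 left 81, day 0 control 1 left 111 and day 5 control 1 left 143. The count was 184 without day 0 Dox 1, 185 without day 5 Dox 1 and 202 without day 0 control 2. It rose to 231 without day 0 control 3 and to 288 without day 0 Dox 3. List counts below with a library left out stand beside these totals. Of the 219 genes, 39 (21 higher, 18 lower) were called in all 12 fits that each left out 1 library, and 112 were called in 6 or fewer. With the replicate number as a block, 421 of 17212 genes tested were called (221 higher, 200 lower), among them 217 of the 219. List counts with the replicate block below stand beside that number. All 219 kept their sign when the interaction was computed within each of the 3 numbers, on the log2(CPM + 0.5) scale, which draws values of genes near 0 counts towards 0. The same libraries chose these genes, so a shared sign is favoured by the choice and is no independent check. At an unadjusted p below 0.05, a measure given below for gene lists, 12.4% of all genes differed, 6.57% higher and 5.81% lower. Over all 17212 genes the interaction was positive in 8889, the day 0 response in 8643 and the day 5 response in 9010. In the sentences below, "control 3 of day 5" names the library of that group and number.

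**Figure D2:**
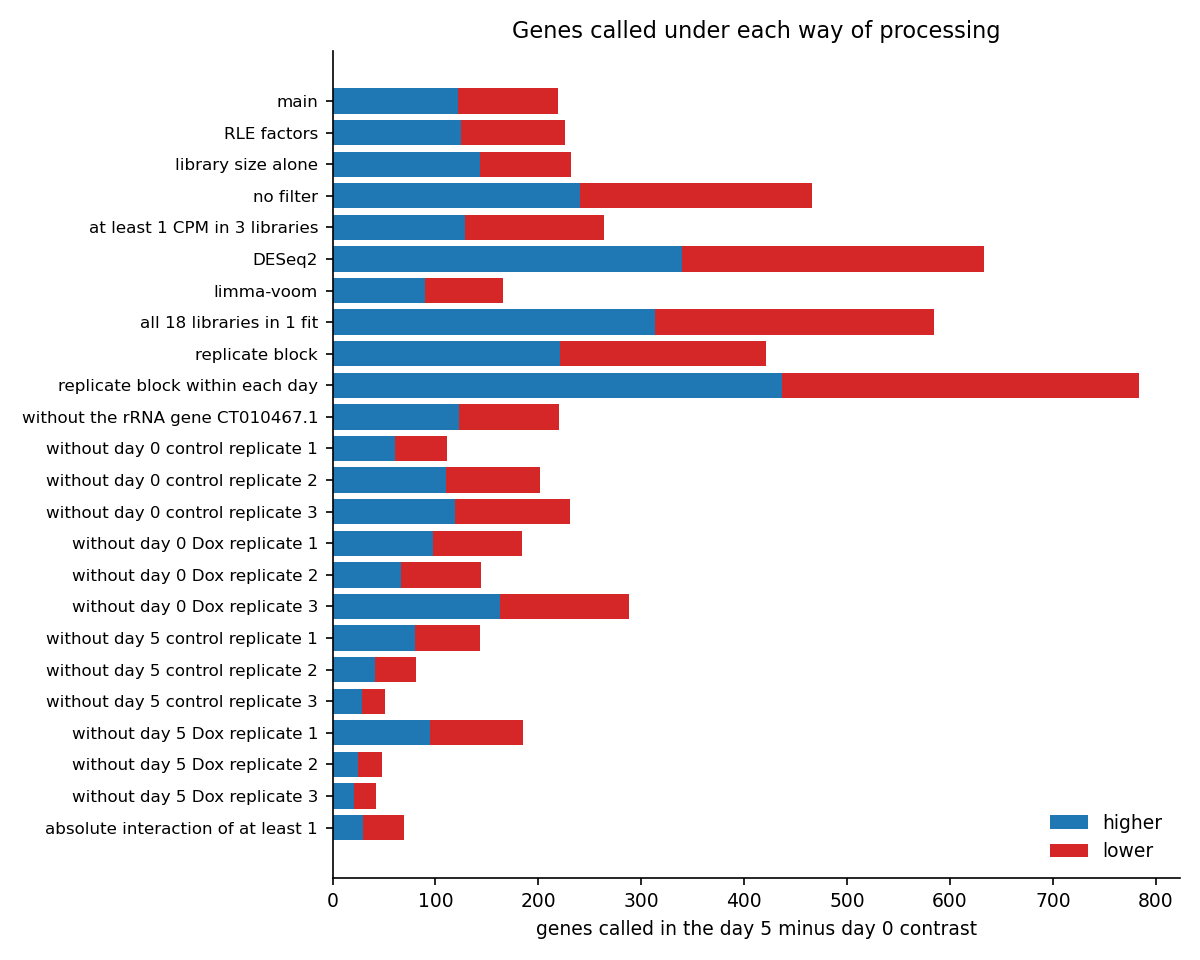
Number of genes called higher and lower (stacked bars) with each alternative setting and with each library left out. The bars run from 42 genes without day 5 Dox 3 to 784 with a replicate block within each day.

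Slc44a5 (chr3:153973436-154271722, + strand), a member of the choline transporter-like family, had the larger change in response of the 2 reversing genes. In the stem cells it was at 1.39, 1.58 and 0.953 CPM in controls and at 0.123, 0.233 and 0.216 CPM with Dox. In gastruloids it was at 4.82, 5.18 and 5.29 CPM in controls and at 19.6, 19.7 and 22.8 CPM with Dox. Dox libraries were thus below all controls at day 0 and above all controls at day 5, with no overlap at either day. The response was -2.75 (SE 0.28, edgeR adjusted p = 0.000958) at day 0 and 2.02 (SE 0.15, edgeR adjusted p = 1.29e-05) at day 5, and the interaction was 4.77 (SE 0.31, edgeR adjusted p = 1.48e-05). The day 0 Dox values rest on 3, 6 and 6 counts, so the size of the day 0 response is imprecise, and the gene kept both calls and opposite signs in every setting tried.

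Phgdh (chr3:98313170-98339990, - strand), the first enzyme of serine synthesis, reversed in the other direction. It was at 75.5, 83.8 and 72.2 CPM in day 0 controls and 98, 133 and 115 CPM in day 0 Dox libraries. By day 5 the level was 172, 194 and 180 CPM in controls and 139, 139 and 136 CPM with Dox. The Dox libraries lay above all controls at day 0 and below them at day 5. The responses were 0.58 (SE 0.094, edgeR adjusted p = 0.0393) and -0.40 (SE 0.092, edgeR adjusted p = 0.0352), and the interaction was -0.98 (SE 0.13, edgeR adjusted p = 0.00494). The interaction was called whichever 1 of the 12 libraries was left out (edgeR adjusted p at most 0.024), but the calls of both days held only without Dox 1 or Dox 3 of day 0. With the replicate block 19 genes reversed, 4 of them from the list of serine, folate and proline synthesis: Phgdh, Psat1, Mthfd2 and Shmt2.

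The 8 fading genes had a response in stem cells that was no longer called in gastruloids. All 8 had fitted responses of opposite signs at the 2 days. The class therefore marks a threshold missed at day 5 and does not show that the response was lost. Col26a1 (chr5:136741759-136883209, - strand), a collagen, was at 0.616, 0.557 and 0.66 CPM in day 0 controls and 1.68, 2.21 and 1.37 CPM with Dox, a response of 1.52 (SE 0.21, edgeR adjusted p = 0.0188). At day 5 its control values of 22.1, 23 and 20.2 CPM overlapped the Dox values of 20.4, 16.7 and 17.2 CPM, and the interaction was -1.78 (SE 0.25, edgeR adjusted p = 0.00588). The gene was thus low but higher with Dox in stem cells, and far more abundant with no separation in gastruloids. Nefm (chr14:68082590-68124846, - strand), the medium neurofilament of axons, went the other way. It was at 62.7, 67.7 and 55.4 CPM in day 0 controls and 28.9, 19.4 and 24.3 CPM with Dox, and at 7.63, 7.2 and 6.2 CPM against 8.55, 8.43 and 9.95 CPM at day 5. Its day 0 response was -1.36 (SE 0.13, edgeR adjusted p = 0.000584), its day 5 response 0.36 (SE 0.15, edgeR adjusted p = 0.279), and its interaction 1.72 (SE 0.20, edgeR adjusted p = 0.00167). Col26a1 and Nefm were called whichever library was left out, and so was Pnrc1, a nuclear receptor coregulator, at 0.77 (SE 0.12, edgeR adjusted p = 0.00822). Eif4g3, a translation initiation scaffold, had an interaction of -0.59 (SE 0.11, edgeR adjusted p = 0.0176) and lost its call without control 3, Dox 2 or Dox 3 of day 5 (edgeR adjusted p 0.0696 to 0.0747). The other members included Aldh18a1, described with its group below, Flcn at 0.50 (edgeR adjusted p = 0.016) and the predicted gene Gm19412 at 1.60 (edgeR adjusted p = 0.015). With the replicate block 54 genes faded. Leaving out control 3 or Dox 3 of day 0 gave 23 fading genes each, control 2 of day 0 gave 1, control 1 or Dox 2 of day 0 gave 2, control 1 or control 2 of day 5 gave 3, Dox 1 of day 5 gave 4, and control 3, Dox 2 or Dox 3 of day 5 gave 2.

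Genes of serine, folate and proline synthesis were the list with the most calls. Of 15 measured members 9 were called lower and none higher, beside 0.564% of all tested genes called lower. The median interaction was -0.84, against 0.010 over all genes. At day 0 the response was positive in 14 of 15, with a median of 0.38, and at day 5 it was positive in 0 of 15, with a median of -0.34 (all genes: 0.001 and 0.009). The medians within numbers 1, 2 and 3 were -0.49, -1.05 and -0.76, and without day 0 Dox 2 the median was -0.69 with 8 called. For the day 0 response the medians by number were 0.27, 0.50 and 0.33, largest in number 2, which holds day 0 Dox 2. Counts below 6 came from leaving out control 1 of day 0 (4), control 2 (3), control 3 (2), Dox 2 (2) or Dox 3 (2) of day 5.

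Psat1 (chr19:15904678-15947337, - strand), the transaminase that follows Phgdh, was at 306, 357 and 289 CPM in day 0 controls and 388, 506 and 388 CPM with Dox. In gastruloids it was at 340, 370 and 357 CPM in controls and 247, 240 and 230 CPM with Dox. Dox libraries lay above the controls at day 0 and below them at day 5, and the interaction of -1.001 (SE 0.14, edgeR adjusted p = 0.00605) was called whichever 1 of the 12 libraries was left out (edgeR adjusted p at most 0.034). Mthfd2, the mitochondrial folate dehydrogenase, was at 59.8, 78.3 and 62.2 CPM against 93.8, 128 and 91.8 CPM with Dox at day 0. At day 5 the values were 43.1, 53.6 and 47 CPM against 38.3, 34.9 and 30.2 CPM. The groups did not overlap at either day, and the interaction of -1.12 (SE 0.20, edgeR adjusted p = 0.0178) lost its call without control 1 of day 0 or control 2, control 3, Dox 2 or Dox 3 of day 5 (edgeR adjusted p 0.0501 to 0.0712). Pck2 (chr14:55540266-55551242, + strand), the mitochondrial phosphoenolpyruvate carboxykinase, was at 60.9, 74.7 and 55.7 CPM in day 0 controls and 92.9, 151 and 90 CPM with Dox, which were apart. Neither day's response was called, but with the replicate block the day 0 response was (0.79, SE 0.12, edgeR adjusted p = 0.00874). Its interaction of -1.14 (SE 0.25, edgeR adjusted p = 0.0442) kept its call without control 2, Dox 1, Dox 2 or Dox 3 of day 0 and lost it without any of the other 8 libraries (edgeR adjusted p 0.0631 to 0.147). Aldh18a1, which makes the proline precursor, had an interaction of -0.84 (SE 0.15, edgeR adjusted p = 0.0167) and lost its call without control 3, Dox 2 or Dox 3 of day 5 (edgeR adjusted p 0.0626 to 0.0658). The other called members were Shmt2 (-0.88, edgeR adjusted p = 0.0167), Psph (-0.85, edgeR adjusted p = 0.0258), Mthfd1l (-0.61, edgeR adjusted p = 0.0246) and Pycr1 (-0.79, edgeR adjusted p = 0.0451). The 6 members that were not called included Aldh1l2 at -1.12 (edgeR adjusted p = 0.0749), Mthfd1 at -0.30 (edgeR adjusted p = 0.0527) and Cbs at 0.008 (edgeR adjusted p = 1).

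**Figure D3:**
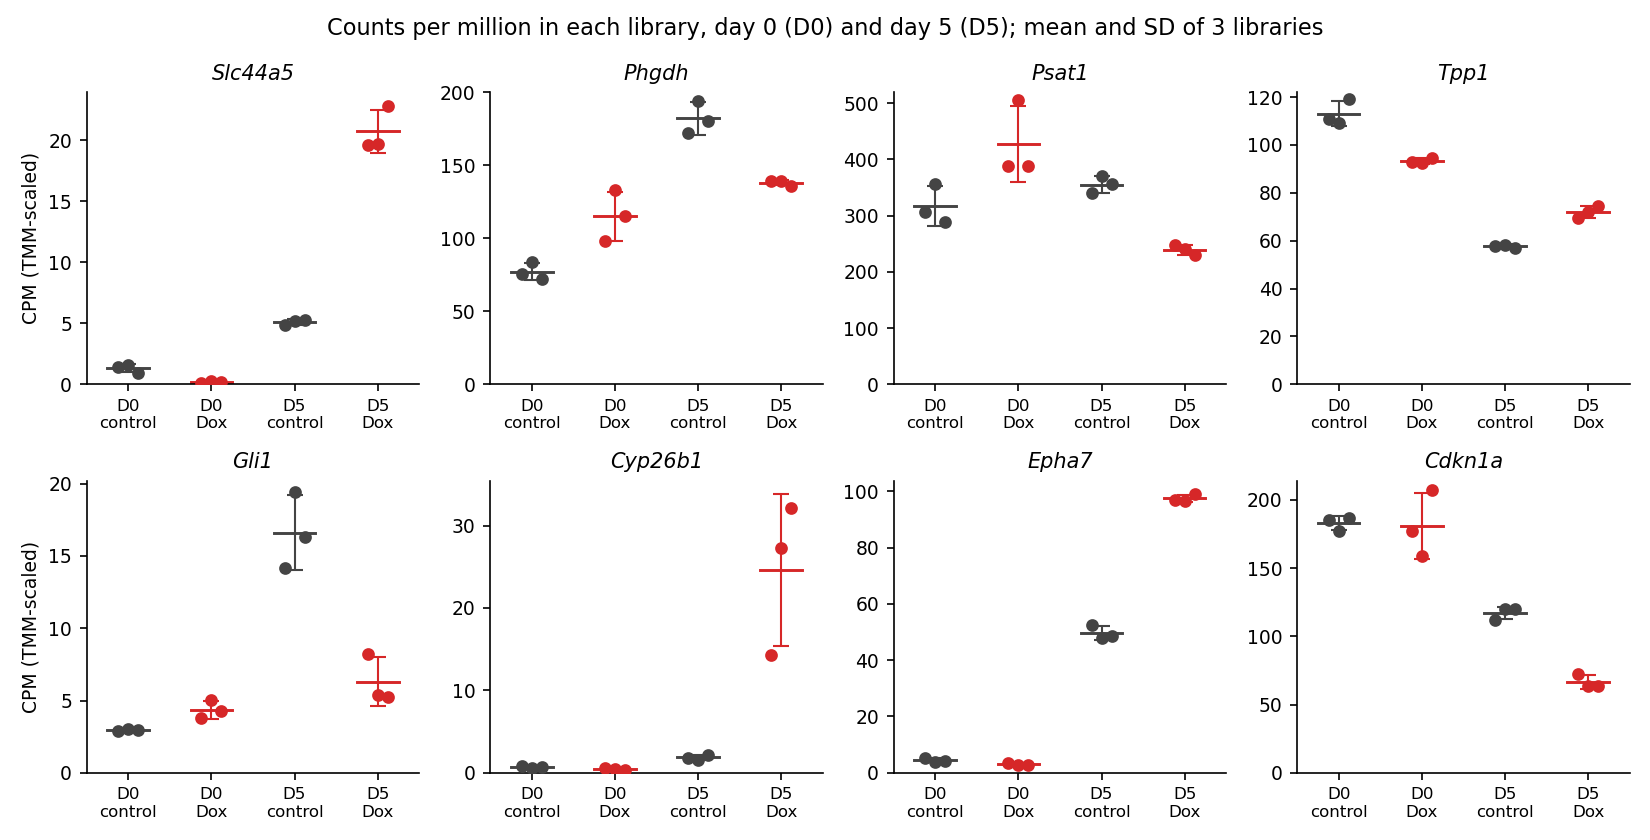
Level in CPM in each of the 12 libraries (points) with group mean and SD (bars) for Slc44a5, Phgdh, Psat1, Tpp1, Gli1, Cyp26b1, Epha7 and Cdkn1a at day 0 and day 5. Phgdh and Psat1 with Dox lie above the controls at day 0 and below them at day 5, and Tpp1 does the opposite.

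Of 22 measured ATF4 targets 4 were called lower and none higher, with 17 lower at an unadjusted p below 0.05 (5.81% of all genes). The median interaction was -0.78. The response was positive in 20 of 22 at day 0, with a median of 0.32, and in 1 of 22 at day 5, with a median of -0.41. Within numbers 1, 2 and 3 the medians were -0.45, -1.05 and -0.76, and without day 0 Dox 2 the median was -0.64 with 4 called. The day 0 response alone had medians of 0.26, 0.47 and 0.21 in these numbers, again largest in number 2. The replicate block gave 11 calls. Leaving out control 1 of day 0 or control 2, control 3, Dox 2 or Dox 3 of day 5 gave 2 calls each. Leaving out Dox 3 of day 0 gave 12, in a fit that called 288 genes in all. Sesn2 (chr4:132492032-132510501, - strand), a leucine sensor that restrains mTORC1, was at 185, 169 and 195 CPM in day 0 controls and 210, 206 and 212 CPM with Dox. At day 5 it was at 197, 187 and 194 CPM against 145, 121 and 122 CPM. The Dox libraries were above all controls at day 0 and below all controls at day 5, with only the day 5 response called (-0.57, SE 0.073, edgeR adjusted p = 0.000961), and the interaction of -0.77 (SE 0.10, edgeR adjusted p = 0.00494) was called whichever 1 of the 12 libraries was left out (edgeR adjusted p at most 0.024).

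Slc7a3 (chrX:101079210-101086020, - strand), a cationic amino acid transporter, was at 127, 122 and 114 CPM in day 0 controls and 151, 148 and 123 CPM with Dox, which overlapped. At the later stage it was at 7.96, 9.62 and 8.09 CPM against 5.51, 4.53 and 3.52 CPM, which did not. Its interaction was -1.14 (SE 0.18, edgeR adjusted p = 0.0109), and it was called whichever 1 of the 12 libraries was left out (edgeR adjusted p at most 0.0487). Eif4ebp1, the inhibitor of cap-dependent translation, had an interaction of -0.76 (SE 0.14, edgeR adjusted p = 0.0205) with a day 5 response of -0.64 (SE 0.10, edgeR adjusted p = 0.00359). Eif4ebp1 lost its call without control 1 of day 0 or control 2, control 3, Dox 2 or Dox 3 of day 5 (edgeR adjusted p 0.0551 to 0.083). Ddit4, an inhibitor of mTORC1, had an interaction of -0.74 (SE 0.14, edgeR adjusted p = 0.0249) and kept its call without control 3, Dox 1 or Dox 3 of day 0 or Dox 1 of day 5 and lost it without any of the other 8 libraries (edgeR adjusted p 0.0505 to 0.0965). The members with the lowest interactions were not called: Slc7a11, the cystine importer, at -2.86 (edgeR adjusted p = 0.248), Chac1, which degrades glutathione, at -2.60 (edgeR adjusted p = 0.0561), and Atf3 at -2.09 (edgeR adjusted p = 0.12). Atf4 itself was at -0.56 (edgeR adjusted p = 0.289), and Ddit3, which encodes CHOP, at 0.011 (edgeR adjusted p = 1).

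Cytosolic aminoacyl-tRNA synthetases, which load amino acids onto tRNAs, gave 4 lower calls among 20 measured, and the replicate block gave 10. Their median interaction was -0.35. The response was positive in 19 of 20 at day 0 (median 0.17) and in 0 of 20 at day 5 (median -0.20). Within numbers 1, 2 and 3 the day 0 medians were 0.14, 0.19 and 0.19. Yars (chr4:129189760-129219607, + strand), for tyrosine, was at 187, 219 and 175 CPM in day 0 controls and 220, 258 and 217 CPM with Dox, at day 5 at 154, 165 and 157 CPM and 123, 109 and 105 CPM. The groups were separate at day 5 alone, where the response was -0.50 (SE 0.092, edgeR adjusted p = 0.00965). The interaction of -0.76 (SE 0.13, edgeR adjusted p = 0.0149) lost its call without control 3, Dox 2 or Dox 3 of day 5 (edgeR adjusted p 0.0558 to 0.0642). Cars, for cysteine, at -0.70 (SE 0.12, edgeR adjusted p = 0.016), lost its call without control 2, control 3, Dox 2 or Dox 3 of day 5 (edgeR adjusted p 0.0526 to 0.0658). Mars, for methionine, at -0.61 (SE 0.13, edgeR adjusted p = 0.0372), lost its call without control 1 of day 0 or control 1, control 2, control 3, Dox 2 or Dox 3 of day 5 (edgeR adjusted p 0.0662 to 0.13). Lars, for leucine, at -0.53 (SE 0.12, edgeR adjusted p = 0.047), kept its call without control 2 or Dox 3 of day 0 and lost it without any of the other 10 libraries (edgeR adjusted p 0.0549 to 0.154). None of the 20 was called without control 3, Dox 2 or Dox 3 of day 5, 1 was called without control 2 of day 5, 2 without control 1 of either day, 7 without control 2 of day 0 (202 genes called in all) and 8 without Dox 3 of day 0 (288 in all). Each of those fits had fewer libraries, and the medians stayed between -0.41 and -0.29 over the 12.

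**Figure D4:**
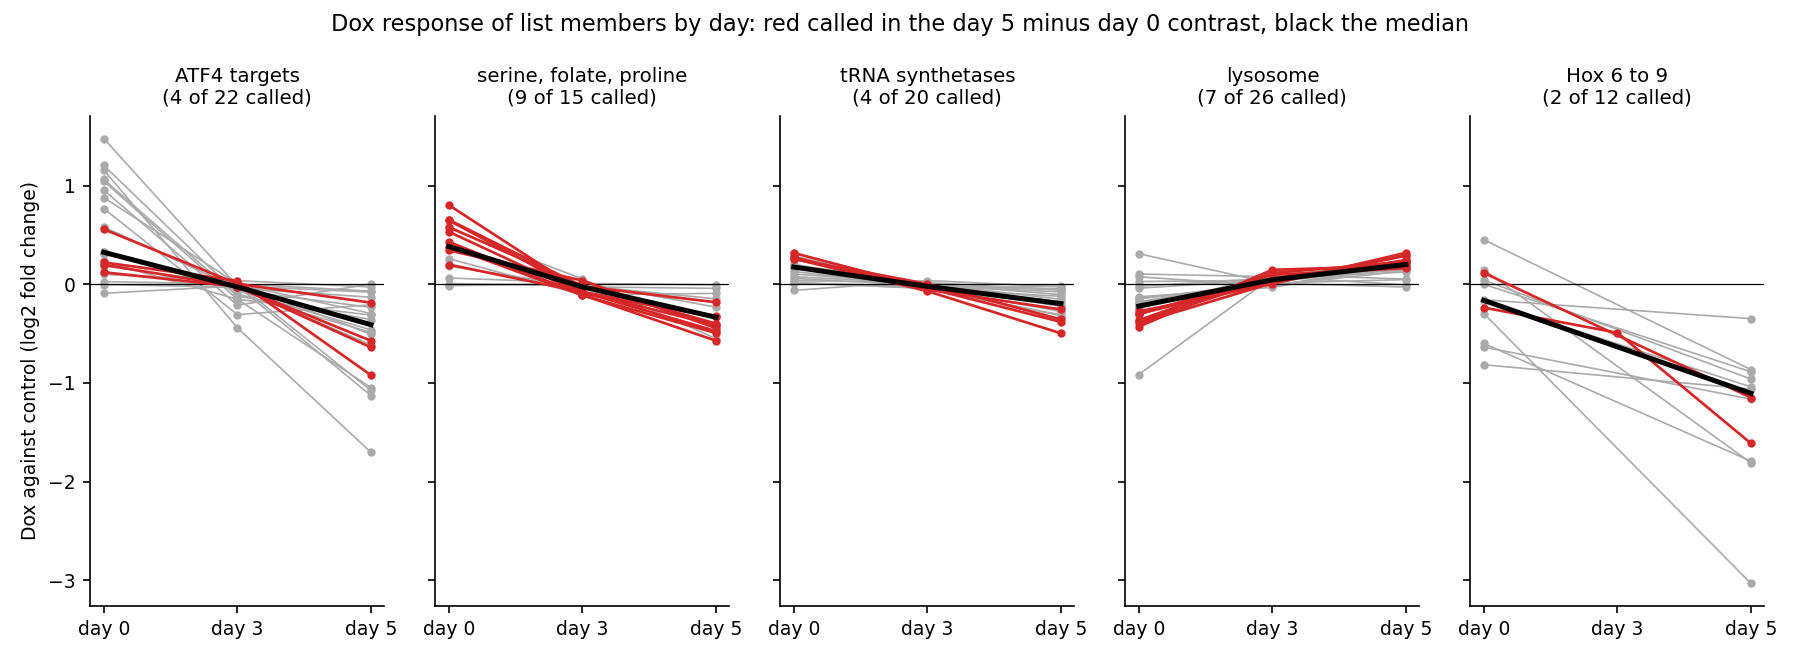
Log2 ratio of Dox to control at day 0, day 3 and day 5 for each member (points) of 5 gene lists. Red points are genes called in the interaction and black lines are list medians. ATF4 targets, serine, folate and proline genes and tRNA synthetases are mostly above 0 at day 0 and below it at day 5, and lysosomal genes show the reverse.

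The promoters of these amino acid genes were searched for the C/EBP-ATF element TGATGNAA, the composite site that ATF4 dimers are known to bind, on both strands of RefSeq windows (GRCm38.p6) from 250 bases before to 50 bases after each start. Of 11961 tested symbols with a window 2.6% held it. It was present in 7 of 18 ATF4 targets with a window (38.9%), 5 of 13 synthetases (38.5%) and 2 of 13 serine, folate and proline genes (15.4%). These shares are over whole lists, called or not. The lists hold genes of the programme that ATF4 is known to turn on. High shares are therefore favoured by the choice of list and do not bear on the Dox response. Of the called members with a window, 0 of 2 ATF4 targets, 1 of 2 synthetases and 2 of 9 serine, folate and proline genes held it. Among called genes it was present in 5 of 73 lower (6.85%) and 4 of 104 higher (3.85%). The windows of 3 called genes are shown because they carry the element, in capitals as read on the printed strand (Pck2 has its reverse complement). They are Pck2 at chr14:55540016-55540315 on the + strand, Pycr1 at chr11:120643699-120643998 on the - strand and Yars at chr4:129189653-129189952 on the + strand. A match describes the letters of the window and is not evidence of binding.
Pck2 promoter: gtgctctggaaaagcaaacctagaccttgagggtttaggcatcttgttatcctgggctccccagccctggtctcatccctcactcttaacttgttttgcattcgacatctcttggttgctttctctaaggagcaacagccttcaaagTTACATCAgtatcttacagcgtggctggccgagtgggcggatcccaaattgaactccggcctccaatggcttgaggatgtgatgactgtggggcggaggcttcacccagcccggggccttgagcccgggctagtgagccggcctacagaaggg
Pycr1 promoter: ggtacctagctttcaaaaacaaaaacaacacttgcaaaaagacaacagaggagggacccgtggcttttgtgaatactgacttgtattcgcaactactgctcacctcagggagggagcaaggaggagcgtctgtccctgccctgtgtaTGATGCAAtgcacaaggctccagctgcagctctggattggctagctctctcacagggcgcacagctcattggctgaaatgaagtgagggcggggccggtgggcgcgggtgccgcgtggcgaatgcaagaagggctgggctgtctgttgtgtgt
Yars promoter: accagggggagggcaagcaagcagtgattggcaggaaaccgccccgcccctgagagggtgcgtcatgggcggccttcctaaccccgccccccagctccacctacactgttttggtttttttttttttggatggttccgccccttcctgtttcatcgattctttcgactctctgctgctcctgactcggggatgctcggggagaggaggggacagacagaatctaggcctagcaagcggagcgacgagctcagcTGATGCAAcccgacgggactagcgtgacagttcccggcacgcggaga

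Lysosomal genes differed in the opposite direction. Of 26 measured members 7 were called higher and none lower, beside 0.709% of all tested genes called higher, and 19 were higher at an unadjusted p below 0.05 (6.57% of all genes). The median interaction was 0.36. The response was positive in 4 of 26 at day 0, with a median of -0.22, and in 24 of 26 at day 5, with a median of 0.20. Within numbers 1, 2 and 3 the medians were 0.35, 0.50 and 0.35, and without day 0 Dox 2 the median was 0.33 with 3 called. The day 0 response alone had medians of -0.20, -0.30 and -0.11 in these numbers, lowest in number 2. The replicate block gave 12 calls. Leaving out Dox 2 or Dox 3 of day 5 gave 1, any 1 of the day 5 controls gave 2, and control 1 or Dox 1 of day 0 gave 3.

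Tpp1 (chr7:105744811-105752235, - strand), a lysosomal peptidase, was at 111, 109 and 119 CPM in day 0 controls and 92.7, 92.3 and 94.7 CPM with Dox. In gastruloids the level was 57.9, 58.3 and 56.9 CPM in controls and 69.4, 71.8 and 74.5 CPM with Dox. The groups were separate at both days and in opposite order, the response was -0.28 (SE 0.053, edgeR adjusted p = 0.0599) at day 0 and 0.32 (SE 0.053, edgeR adjusted p = 0.00502) at day 5, and the interaction of 0.59 (SE 0.075, edgeR adjusted p = 0.00341) was called whichever 1 of the 12 libraries was left out (edgeR adjusted p at most 0.022). Both responses were called with the replicate block, that of day 0 at -0.28 (SE 0.051, edgeR adjusted p = 0.0259), so that Tpp1 was then a reversing gene. Ctsa, a protective carboxypeptidase, at 0.68 (SE 0.15, edgeR adjusted p = 0.0391), kept its call without control 1, control 2 or Dox 3 of day 0 and lost it without any of the other 9 libraries (edgeR adjusted p 0.0578 to 0.126). Npc2, which hands cholesterol to Npc1, at 0.60 (SE 0.13, edgeR adjusted p = 0.0372), kept its call without control 2, control 3 or Dox 3 of day 0 or Dox 1 of day 5 and lost it without any of the other 8 libraries (edgeR adjusted p 0.0634 to 0.128). Also called were Hexa, a hexosaminidase subunit (0.59, edgeR adjusted p = 0.0432), Atp6v0d1, a subunit of the proton pump (0.54, edgeR adjusted p = 0.0318), and Mcoln1, a calcium channel of the lysosome (0.47, edgeR adjusted p = 0.032). Manba had the highest interaction of the list and was not called (1.16, edgeR adjusted p = 0.144), and Gusb (-0.34, edgeR adjusted p = 0.428) and Laptm4a (-0.11, edgeR adjusted p = 0.653) were below 0.

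The CLEAR core TCACGTGA, its own reverse complement and an extension of the E-box CACGTG, was present in 2% of the 11961 tested symbols with a window. It was present in 4 of 18 lysosomal genes with a window (22.2%): Atp6v0d1, Ctsa, Ctsd and Mcoln1. The element is known from promoters of lysosomal genes, so this share too is favoured by the choice of list. Among all called genes it was present in 9 of 104 higher (8.65%) and in 0 of 73 lower. The 9 were Atp6v0d1, Ctsa, Dpp7, Mcoln1, Mfsd1, Ogdhl, Tbc1d13, Vps26a and Washc2. The windows of the 3 called list members that carry it are printed with the element in capitals: Mcoln1 at chr8:3500269-3500568 on the + strand, Ctsa at chr2:164833523-164833822 on the + strand with 2 copies, and Atp6v0d1 at chr8:105566015-105566314 on the - strand. The first capital run in the Atp6v0d1 window is the reverse complement of a C/EBP-ATF element. The other annotated start of Ctsa had no copy in its window.
Mcoln1 promoter: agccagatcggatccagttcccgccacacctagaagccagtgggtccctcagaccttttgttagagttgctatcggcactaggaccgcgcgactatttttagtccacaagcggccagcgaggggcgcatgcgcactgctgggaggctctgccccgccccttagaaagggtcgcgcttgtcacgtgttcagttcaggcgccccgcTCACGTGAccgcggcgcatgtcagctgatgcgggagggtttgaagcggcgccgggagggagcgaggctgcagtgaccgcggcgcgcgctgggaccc
Ctsa promoter: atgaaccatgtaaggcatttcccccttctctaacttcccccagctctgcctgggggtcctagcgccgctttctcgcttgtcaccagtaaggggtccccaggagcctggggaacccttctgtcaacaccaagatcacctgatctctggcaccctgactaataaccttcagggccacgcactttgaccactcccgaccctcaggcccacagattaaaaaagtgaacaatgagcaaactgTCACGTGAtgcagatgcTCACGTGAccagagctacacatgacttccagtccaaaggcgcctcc
Atp6v0d1 promoter: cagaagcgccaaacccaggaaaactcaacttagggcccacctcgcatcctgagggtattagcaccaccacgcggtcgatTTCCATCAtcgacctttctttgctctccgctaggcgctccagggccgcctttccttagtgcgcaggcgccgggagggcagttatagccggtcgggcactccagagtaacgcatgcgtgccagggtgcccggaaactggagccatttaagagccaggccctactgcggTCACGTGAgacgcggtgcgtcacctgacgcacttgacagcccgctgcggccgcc

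Targets of p53 gave 2 lower calls among 21 measured, and 9 with the replicate block. Their median interaction was -0.50, and 13 were lower at an unadjusted p below 0.05. Cdkn1a (chr17:29090976-29100727, + strand), the p21 inhibitor of the cell cycle, was at 185, 177 and 187 CPM in day 0 controls and 177, 159 and 207 CPM with Dox, which overlapped. By day 5 the level was 112, 120 and 120 CPM in controls and 72.3, 63.3 and 63.5 CPM with Dox. The response thus appeared between the stages, at -0.83 (SE 0.086, edgeR adjusted p = 0.000246) on day 5, and the interaction of -0.81 (SE 0.12, edgeR adjusted p = 0.00767) was called whichever 1 of the 12 libraries was left out (edgeR adjusted p at most 0.0393). Bbc3, which encodes the pro-apoptotic PUMA, was at 63.9, 68.2 and 67.5 CPM in day 5 controls and 42.4, 40 and 38 CPM with Dox. Its interaction of -0.92 (SE 0.17, edgeR adjusted p = 0.0208) lost its call without control 1 of day 0 or control 2, control 3, Dox 2 or Dox 3 of day 5 (edgeR adjusted p 0.0551 to 0.0866). Without control 3 of day 0, 4 of the list were called, beside 231 genes in all. Of 20 ribosome biogenesis genes all had negative interactions (median -0.25) and 1 was called, Polr1b, a subunit of RNA polymerase I, at -0.37 (SE 0.072, edgeR adjusted p = 0.0278). With the replicate block 3 were called. Polr1b lost its call without control 1 of day 0 or control 1, control 2, control 3, Dox 2 or Dox 3 of day 5 (edgeR adjusted p 0.053 to 0.117) and was not called with library size alone as the scaling or with no filter.

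Patterning genes gave 1 or 2 calls in each of several lists. Gli1 (chr10:127329882-127341974, - strand), a target and effector of Hedgehog signalling, was at 2.92, 3.06 and 2.97 CPM in day 0 controls and 3.77, 5.01 and 4.28 CPM with Dox. In gastruloids it was at 14.2, 19.4 and 16.3 CPM in controls and 8.25, 5.4 and 5.26 CPM with Dox. Dox libraries were the higher at day 0 and the lower at day 5, the day 5 response alone was called (-1.40, SE 0.18, edgeR adjusted p = 0.000961), and the interaction of -1.94 (SE 0.27, edgeR adjusted p = 0.00559) was called whichever 1 of the 12 libraries was left out (edgeR adjusted p at most 0.024). It was the 1 call among 13 Hedgehog genes (median -0.14). With the replicate block 3 of the 13 were called. A GLI site, GACCACCCA, was also searched for in the promoter windows. It was present in 0 of 9 Hedgehog genes with a window, 0 of 104 genes called higher and 0 of 73 called lower. Over all 11961 tested symbols with a window the share was 0.234%. Pax1 (chr2:147361925-147393295, + strand), which marks the sclerotome of somites, was at 2 to 6 counts in each day 0 library. At day 5 it was at 4.48, 4.81 and 4.98 CPM in controls and 0.391, 0.6 and 0.625 CPM with Dox. These groups were far apart, with a response of -3.13 (SE 0.25, edgeR adjusted p = 1.97e-05) and an interaction of -3.74 (SE 0.53, edgeR adjusted p = 0.00617), and the gene was called whichever 1 of the 12 libraries was left out (edgeR adjusted p at most 0.0289). Beside it, the summed level of 18 somite and sclerotome genes at day 5 ran from 204 to 223 CPM in controls and from 146 to 176 CPM with Dox. Pax1 was the 1 call among 16 measured somite genes (median -0.59), and the replicate block gave 3.

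Foxa1, which marks floor plate and endoderm, was at 0.385, 0.217 and 0.367 CPM in day 0 controls and 0.573, 0.427 and 0.323 CPM with Dox, both below 1 CPM. It was at 3.68, 3.6 and 4.2 CPM in day 5 controls and 1.63, 1.47 and 1.25 CPM with Dox. Its interaction of -1.86 (SE 0.39, edgeR adjusted p = 0.0391) kept its call without control 3 or Dox 3 of day 0 and lost it without any of the other 10 libraries (edgeR adjusted p 0.0513 to 0.124). It was the 1 call among 10 genes of the ventral neural tube, whose median interaction was -1.23, with 1 of 10 positive. Within numbers 1, 2 and 3 that median was -0.78, -0.44 and -0.52. Foxa1 also counts among endoderm genes, with 2 of 13 called lower (median 0.016) and 3 with the replicate block. Their summed level at day 5 ran from 31.2 to 39.7 CPM in controls and from 21 to 25.4 CPM with Dox. The other endoderm call was Cdh1, the epithelial cadherin, at 5.32, 6.18 and 5.74 CPM in day 5 controls and 3.61, 2.43 and 2.81 CPM with Dox, after 439 to 509 CPM in all day 0 libraries. Its interaction of -0.997 (SE 0.15, edgeR adjusted p = 0.00842) was called whichever 1 of the 12 libraries was left out (edgeR adjusted p at most 0.0496). Pax6, a neural progenitor factor, was at 4.89, 4.33 and 7.52 CPM against 7.29, 7.34 and 9.27 CPM with Dox at day 0 and at 249, 258 and 264 CPM against 187, 195 and 196 CPM at day 5. The groups overlapped at day 0 and were apart at day 5, neither response was called, the interaction was -0.94 (SE 0.20, edgeR adjusted p = 0.0391), and Pax6 kept its call without control 3 or Dox 1 of day 0 and lost it without any of the other 10 libraries (edgeR adjusted p 0.058 to 0.117). The day 5 response was called with the replicate block, at -0.42 (SE 0.090, edgeR adjusted p = 0.0187). It was the 1 call among 20 neural progenitor genes (median -0.003) and was lost with library size alone as the scaling.

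Hox genes of paralogue groups 6 to 9, which mark the trunk, had a median interaction of -1.10 (-0.69, -0.78 and -0.80 within numbers 1, 2 and 3), and none of the 12 measured had a positive one. Their median response was -0.16 at day 0 and -1.11 at day 5, where 7 of 12 were called lower, beside 1.25% of all genes tested. The interaction was called for 2, Hoxa7 and Hoxd8. Hoxa7 was at 12.4, 14.3 and 18 CPM in day 5 controls and 4.76, 4.71 and 5.14 CPM with Dox, and its interaction of -1.38 (SE 0.31, edgeR adjusted p = 0.0462) kept its call without control 3 or Dox 3 of day 0 and lost it without any of the other 10 libraries (edgeR adjusted p 0.0501 to 0.145). Hoxd8 was at 8.03, 8.81 and 8.98 CPM against 3.98, 4.23 and 3.44 CPM, and its interaction of -1.26 (SE 0.26, edgeR adjusted p = 0.0318) kept its call without control 3 or Dox 3 of day 0 and lost it without any of the other 10 libraries (edgeR adjusted p 0.0544 to 0.117). No gene of these groups was called when control 1, Dox 1 or Dox 2 of day 0 or any day 5 library was left out, while the medians over the 12 fits stayed between -1.25 and -0.96. Groups 1 to 5 gave 1 lower call among 15 (median -0.30), Hoxa5. It was at 0.577, 0.65 and 0.697 CPM in day 0 controls and 0.942, 0.622 and 1.01 CPM with Dox, which is a low level, and at 22.1, 24.2 and 23.7 CPM in day 5 controls and 12.1, 11 and 9.6 CPM with Dox, with an interaction of -1.51 (SE 0.26, edgeR adjusted p = 0.0141). Hoxa5 lost its call without control 3 of day 5 (edgeR adjusted p = 0.0508). Groups 10 to 13 gave 0 calls among 8 with edgeR, 0 at an unadjusted p below 0.05 and 0 with DESeq2 or limma-voom.

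Retinoic acid genes were called in both directions. Cyp26b1 (chr6:84571414-84593908, - strand), which degrades retinoic acid, was at 0.77, 0.557 and 0.66 CPM in day 0 controls and 0.573, 0.466 and 0.395 CPM with Dox. At the later stage it was at 1.81, 1.58 and 2.2 CPM in controls and 14.3, 27.3 and 32.1 CPM with Dox. Every day 5 Dox library was above every control, Dox 1 being the lowest of the 3, and the response was 3.71 (SE 0.27, edgeR adjusted p = 1.24e-05) with an interaction of 4.18 (SE 0.51, edgeR adjusted p = 0.00306). Cyp26b1 was called whichever 1 of the 12 libraries was left out (edgeR adjusted p at most 0.014) but was not called by limma-voom. Dhrs3, which reduces retinaldehyde and is induced by retinoic acid, was at 3.78, 5.59 and 6.57 CPM in day 5 controls and 1.42, 0.69 and 1.45 CPM with Dox. The day 0 groups overlapped, and the interaction of -2.27 (SE 0.41, edgeR adjusted p = 0.0181) lost its call without control 1 of day 0 or control 2, control 3, Dox 2 or Dox 3 of day 5 (edgeR adjusted p 0.0501 to 0.0713). The 19 measured genes had a median interaction of -0.65 (-0.28, -0.33 and -0.32 within numbers 1, 2 and 3), with 9 lower and 2 higher at an unadjusted p below 0.05, and the replicate block called 4.

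Among the other genes with the largest positive interactions, Epha7 (chr4:28813131-28967499, + strand), an ephrin receptor, was at 5.12, 3.8 and 4.33 CPM in day 0 controls and 3.36, 2.91 and 2.84 CPM with Dox. In gastruloids the level was 52.6, 48 and 48.5 CPM against 96.8, 96.7 and 99 CPM. The groups were separate at both days in opposite order, and the interaction of 1.51 (SE 0.14, edgeR adjusted p = 0.000397) was called whichever 1 of the 12 libraries was left out (edgeR adjusted p at most 0.00278). Scrn1, a secernin, was at 17.7, 17.1 and 16.3 CPM in day 5 controls and 38.5, 37.3 and 37.2 CPM with Dox. Its interaction of 1.49 (SE 0.15, edgeR adjusted p = 0.000497) was called whichever 1 of the 12 libraries was left out (edgeR adjusted p at most 0.00448). Pdzrn4, which carries PDZ and RING domains, was at 4.54, 6.03 and 8.18 CPM in day 0 controls against 1.64, 1.48 and 3.02 CPM with Dox, and at 0.301, 0.0931 and 0.354 CPM against 1.36, 1.26 and 1.05 CPM at day 5. The groups did not overlap at either day, and the interaction of 3.85 (SE 0.53, edgeR adjusted p = 0.00571) was called whichever 1 of the 12 libraries was left out (edgeR adjusted p at most 0.024). Kctd12, an auxiliary subunit of GABA-B receptors, at 1.51 (SE 0.24, edgeR adjusted p = 0.0101), was called whichever 1 of the 12 libraries was left out (edgeR adjusted p at most 0.0439).

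Grm4, a metabotropic glutamate receptor, was at 3.51, 3.82 and 2.4 CPM in day 5 controls and 10.1, 11.3 and 12.8 CPM with Dox, with an interaction of 1.94 (SE 0.37, edgeR adjusted p = 0.0246). Grm4 lost its call without control 1 of day 0 or control 3, Dox 2 or Dox 3 of day 5 (edgeR adjusted p 0.0588 to 0.0919). F3, the tissue factor of coagulation, was at 1.71, 1.18 and 1.04 CPM against 3.19, 3.33 and 3.13 CPM at day 5, with an interaction of 1.69 (SE 0.33, edgeR adjusted p = 0.0283). F3 kept its call without control 1, control 2, control 3 or Dox 3 of day 0 or control 1 of day 5 and lost it without any of the other 7 libraries (edgeR adjusted p 0.0506 to 0.107). In both genes the day 5 groups were separate and the day 0 groups overlapped. Dusp10, a MAP kinase phosphatase, at 1.44 (SE 0.24, edgeR adjusted p = 0.0131), lost its call without control 3, Dox 2 or Dox 3 of day 5 (edgeR adjusted p 0.0501 to 0.0568). Sh2d4b, at 1.52 (SE 0.28, edgeR adjusted p = 0.0205), lost its call without control 1 of day 0 or control 1, control 2, Dox 2 or Dox 3 of day 5 (edgeR adjusted p 0.0501 to 0.0718).

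Genes with the largest negative interactions included Cabp1 (chr5:115168689-115194381, - strand), a neuronal calcium-binding protein. It was at 31.2, 36.6 and 27.8 CPM in day 0 controls and 31.3, 35.6 and 27.4 CPM with Dox, and at 15.7, 16.5 and 17.4 CPM against 6.05, 4.35 and 6.02 CPM at day 5. The day 0 groups overlapped, the day 5 groups did not, and the interaction of -1.57 (SE 0.20, edgeR adjusted p = 0.00318) was called whichever 1 of the 12 libraries was left out (edgeR adjusted p at most 0.0188). Grb10 (chr11:11930508-12038683, - strand), an imprinted adaptor that dampens insulin signalling, was at 85.8, 70.1 and 82.7 CPM against 96.7, 87.6 and 79.9 CPM at day 0 and at 5.55, 4.25 and 5.77 CPM against 2.2, 2.37 and 1.93 CPM at day 5. It was the 1 call among 21 imprinted genes (median 0.041), and the interaction of -1.41 (SE 0.19, edgeR adjusted p = 0.00476) was called whichever 1 of the 12 libraries was left out (edgeR adjusted p at most 0.0232). With the replicate block 2 of the 21 were called.

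Lif, the cytokine that sustains mouse stem cells, was at 2.01, 1.8 and 2.45 CPM in day 5 controls and 1.14, 0.66 and 0.682 CPM with Dox, with an interaction of -1.81 (SE 0.34, edgeR adjusted p = 0.0212). Lif lost its call without control 1 of day 0 or control 3, Dox 2 or Dox 3 of day 5 (edgeR adjusted p 0.052 to 0.0941). Tbx3, a naive pluripotency factor, was at 242, 247 and 228 CPM in day 0 controls, and at 2.78, 3.82 and 3.54 CPM against 1.23, 1.5 and 1.42 CPM with Dox at day 5. It was the 1 call among 20 naive pluripotency genes (median 0.25), at -1.12 (SE 0.17, edgeR adjusted p = 0.00939), and was called whichever 1 of the 12 libraries was left out (edgeR adjusted p at most 0.0456), but it was not called by limma-voom. Plcd4, a phospholipase C, was at 15.8, 20.1 and 21.6 CPM in day 5 controls and 8.4, 5.82 and 6.85 CPM with Dox, with an interaction of -1.84 (SE 0.32, edgeR adjusted p = 0.0167). Plcd4 lost its call without control 2, control 3, Dox 2 or Dox 3 of day 5 (edgeR adjusted p 0.0516 to 0.0638). Cpn1, a carboxypeptidase, at -1.49 (SE 0.25, edgeR adjusted p = 0.0131), lost its call without control 3, Dox 2 or Dox 3 of day 5 (edgeR adjusted p 0.0501 to 0.0568). Ifitm1, an interferon-inducible membrane protein, at -1.48 (SE 0.27, edgeR adjusted p = 0.0197), lost its call without control 1 of day 0 or control 2, control 3, Dox 2 or Dox 3 of day 5 (edgeR adjusted p 0.0523 to 0.0774).

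Single members of further lists were called higher. Id4, a target of BMP signalling, was at 2.71, 2.11 and 2.48 CPM in day 5 controls and 4.88, 5.76 and 5.06 CPM with Dox, with an interaction of 1.35 (SE 0.20, edgeR adjusted p = 0.00822) that was called whichever 1 of the 12 libraries was left out (edgeR adjusted p at most 0.0389). It was the 1 call among 11 BMP targets (median 0.61, and 0.35, 0.44 and 0.32 within numbers 1, 2 and 3). Nrarp, a feedback regulator of Notch, was at 80.7, 74.2 and 72.7 CPM against 102, 138 and 133 CPM at day 5, with an interaction of 1.19 (SE 0.23, edgeR adjusted p = 0.0278), and was the 1 call among 14 Notch genes (median -0.13). Nrarp kept its call without control 1 or Dox 3 of day 0 or control 1 or Dox 1 of day 5 and lost it without any of the other 8 libraries (edgeR adjusted p 0.0535 to 0.0919). Sparc, a matrix glycoprotein counted among extraembryonic endoderm and matrix genes, was at 34.9, 37.7 and 41 CPM against 57.5, 65.3 and 70.3 CPM at day 5 with an interaction of 0.68 (SE 0.14, edgeR adjusted p = 0.0318). It was the 1 call among 9 measured extraembryonic endoderm genes (median 0.48) and among 16 matrix genes (median -0.30). Without Sparc the day 5 sum of the other 11 extraembryonic endoderm genes went the other way. That sum was 191 to 201 CPM in controls and 156 to 181 CPM with Dox. Sparc kept its call without control 1 or Dox 3 of day 0 or Dox 1 of day 5 and lost it without any of the other 9 libraries (edgeR adjusted p 0.0543 to 0.117). Stat2, a mediator of type I interferon signals, at 0.41 (SE 0.086, edgeR adjusted p = 0.0391), kept its call without control 3 or Dox 3 of day 0 or Dox 1 of day 5 and lost it without any of the other 9 libraries (edgeR adjusted p 0.0609 to 0.142). Stat2 was the 1 call among 11 measured genes of interferon and nucleic acid sensing (median -0.11).

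The other 15 called genes had a stage at which no group mean reached 1 CPM, so their difference in response includes a stage with hardly any counts. Pax1, Foxa1, Hoxa5 and Cyp26b1, described above, were among them. Pcdh8, a protocadherin, was at 54.9, 56.1 and 55.5 CPM in day 5 controls and 104, 107 and 113 CPM with Dox, after 3 to 9 counts per day 0 library. Its interaction of 1.75 (SE 0.29, edgeR adjusted p = 0.0391) kept its call without Dox 1 of day 0 or control 1 or Dox 1 of day 5 and lost it without any of the other 9 libraries (edgeR adjusted p 0.0612 to 0.125). St8sia2, which polysialylates NCAM, was at 1, 1 and 2 counts with Dox and 21, 11 and 4 counts in controls at day 0. Its interaction, a fitted value that rests on these few counts, was 3.38 (SE 0.71, edgeR adjusted p = 0.0373), and the gene kept its call without control 3 of day 0 or Dox 1 of day 5 and lost it without any of the other 10 libraries (edgeR adjusted p 0.0515 to 0.0998). Ehd2, a caveolar ATPase, was at 24.3, 23.5 and 24.7 CPM in day 5 controls and 15.9, 15.8 and 15.9 CPM with Dox, with an interaction of -1.25 (SE 0.23, edgeR adjusted p = 0.0186). Ehd2 lost its call without control 2 or Dox 2 of day 0 or control 3, Dox 2 or Dox 3 of day 5 (edgeR adjusted p 0.0534 to 0.0697). Zfp981, a zinc finger gene of a family with close copies among which reads may be split, was at 0.334, 0.341 and 0.379 CPM against 0.753, 0.84 and 0.796 CPM at day 5. Its interaction of 1.11 (SE 0.24, edgeR adjusted p = 0.0442) kept its call without control 2, control 3, Dox 2 or Dox 3 of day 0 and lost it without any of the other 8 libraries (edgeR adjusted p 0.0631 to 0.135), and it was not called with the replicate block.

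Several groups gave no call. Of 18 measured genes of H2A.Z and its exchange complexes, 0 were called with edgeR, DESeq2 or limma-voom, and 1 had an unadjusted p below 0.05. Their median interaction was 0.021, and H2afz was at -0.16 (SE 0.11, edgeR adjusted p = 0.646). Of 16 core and formative pluripotency genes 0 were called by edgeR and 2 by DESeq2, with 2 at an unadjusted p below 0.05. Pou5f1 and Sox2, both core factors, were at 0.57 (SE 0.27, edgeR adjusted p = 0.414) and -0.070 (SE 0.077, edgeR adjusted p = 0.79). Of 20 R-loop processing factors Rnaseh1 was the 1 call (median -0.028), and 2 were called with the replicate block. Replication-dependent histone genes had a median interaction of -1.97 with 0 of 25 called by edgeR, DESeq2 or limma-voom and 3 at an unadjusted p below 0.05. Their day 0 median of 1.85 became -0.047 without day 0 Dox 2, and their median interaction -0.047. Lists for the primitive streak, Nodal pathway, dorsal neural tube, neural crest, blood, heart and trophoblast gave 0 calls with edgeR, DESeq2 or limma-voom, with 3 of 13, 1 of 9, 3 of 13, 1 of 9, 3 of 9, 0 of 9 and 1 of 7 members at an unadjusted p below 0.05, beside 12.4% of all genes.

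Markers of other cell types are set beside these results, and their part in them was not tested. Summed levels at day 5 were 4.11 to 4.97 CPM in controls and 2.59 to 3.91 CPM with Dox for 10 trophoblast genes, with Tpbpa at 0 in all 12 libraries. For 12 blood and endothelium genes they were 4.4 to 5.72 CPM and 6.75 to 7.81 CPM, with Hba-x and Hbb-bh1 at 0 in all 12. For 11 cardiac genes they were 2.58 to 3.03 CPM and 2.55 to 2.62 CPM. For 10 neural crest genes they were 64.8 to 73.1 CPM and 66.9 to 72.4 CPM, and for 10 fibroblast feeder genes 243 to 310 CPM and 321 to 367 CPM, with S100a4 at 0 in all 12. Fn1, fibronectin, which is not restricted to fibroblasts, made up 97% to 99.9% of the feeder sum in each library. Without Fn1 the other 9 feeder genes summed to 6.93 to 7.49 CPM in controls and 5.91 to 7.05 CPM with Dox at day 5, and to 1.08 to 1.42 CPM and 1.11 to 2.29 CPM at day 0. The ranges of controls and Dox at day 5 were separate for trophoblast and blood genes, and overlapped for cardiac and neural crest genes and for the feeder genes without Fn1.

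The 6 day 3 libraries took no part in the interaction and were fitted and scaled on their own, with 12 of 15771 genes called (0.0761%), 9 higher (0.0571%) and 3 lower (0.019%). Of the genes called higher, 93 of 120 measured at day 3 had a positive Dox response there (77.5%), with a median of 0.055. Of those called lower, 33 of 94 had one (35.1%), with a median of -0.024, and over all 15265 genes the share was 49.9% with a median of 0. The day 3 responses thus leaned to the sign seen at day 5 but were small, and none of the higher and 2 of the lower genes, Rnaseh1 and Hprt, were called at day 3. Among appearing genes the response was positive at day 3 in 47 of 65 higher (72.3%) and in 20 of 68 lower (29.4%). Of the 26 lysosomal genes 23 were positive at day 3 (median 0.045), and the ATF4 targets and serine, folate and proline genes had medians of -0.028 and -0.027. Slc44a5 was at 2.01, 2.11 and 2.19 CPM in day 3 controls and 2.5, 2.28 and 2.72 CPM with Dox, a response of 0.25 (SE 0.15, edgeR adjusted p = 0.881). Phgdh was at 230, 235 and 238 CPM against 232, 234 and 230 CPM, a response of -0.016 (SE 0.032, edgeR adjusted p = 0.985). In Slc44a5 all day 3 Dox libraries were above all controls, and in Phgdh the groups overlapped.

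**Figure D5:**
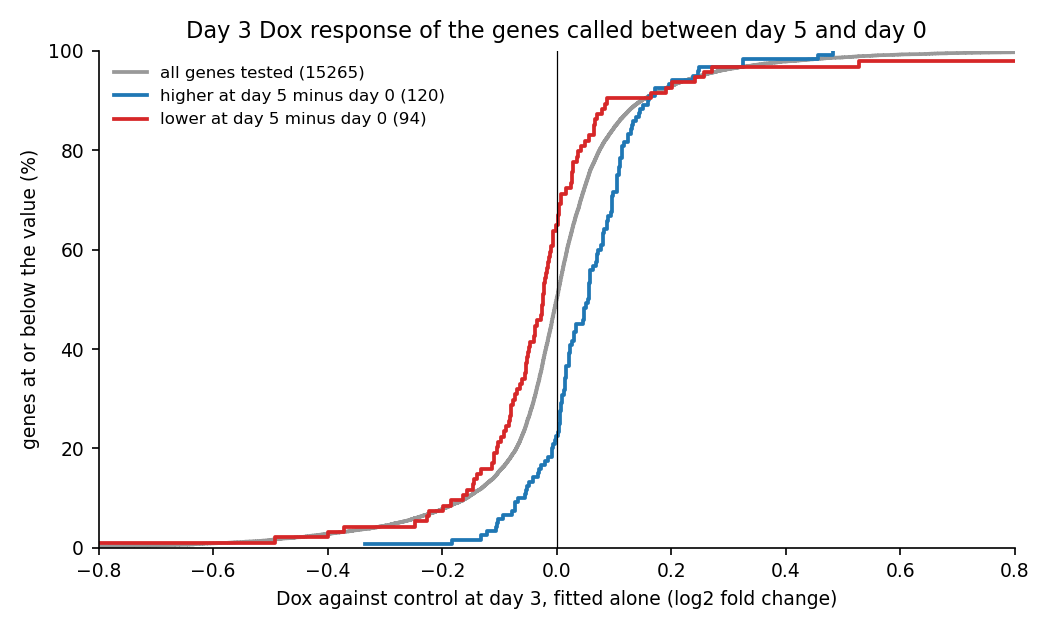
Cumulative share of genes (y axis) by log2 ratio of Dox to control at day 3 (x axis, limited to -0.8 to 0.8) for all 15265 genes, the 120 called higher and the 94 called lower. The line of the higher genes lies to the right of all genes and that of the lower genes to the left.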

How the data were processed

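RNA-seq of 18 libraries was summarised by the authors, whose deposited files give expected counts per gene; the 12 of day 0 and day 5 carry the interaction. Per the submitters' processing notes, RSEM 1.3.3, STAR 2.7.10a, DESeq2 1.38.2, Trimmomatic and GRCm38 are named, without their order; annotation release and strand setting are not given in the sources used here. The kit is stranded, per the labels' protocols. Between 6.54% and 7.49% of expected counts were not whole, and all were rounded. Of 55401 gene IDs 55141 matched GENCODE by unversioned ID; the other 260 held 0.0053% of counts. Genes passed edgeR's filterByExpr (minimum count 10, minimum total 15). Interactions and day responses came from edgeR 4.0.16 (R 4.3.3) quasi-likelihood tests on 4 groups with TMM scaling and 8 residual degrees of freedom, Benjamini-Hochberg adjusted over all 17212 genes. CPM are TMM-scaled, and the SE is the absolute log2 value divided by the square root of F. For genes at a few counts per library this SE can be too small for the p. The interaction of Pcdh8 (1.75, SE 0.29) had an unadjusted edgeR p of 0.000385, and that of Kctd12 (1.51, SE 0.24) had 2.28e-05. Scripts were tested on simulated counts.

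Replicate numbers pair libraries, because the labels give them as batch. Same-numbered control and Dox libraries correlated at 0.219 to 0.350 at day 0 (other pairs -0.269 to 0.060) and at 0.024 to 0.052 at day 5 (-0.057 to 0.017). No 2 replicates agreed within sampling noise. Alternatives were DESeq2 1.42.0, limma-voom (limma 3.58.1), other scalings and filters, replicate blocks, all 18 libraries, and each library left out. Members and the 49 gene lists were chosen with earlier results of these data known. Named genes are those with the largest interactions with at least 5 CPM in 1 group and, from each list, up to 4 called members; others, among them Flcn, Gm19412, Hexa, Mcoln1, Atp6v0d1, Pycr1, Shmt2, Psph, Mthfd1l and uncalled list members, were chosen after their values were seen. Of the genes this rule names, 1 is counted but not reported here.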

Additional observations from a re-analysis of the deposited data

Results flagged for a closer look

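In 2 genes the Dox responses of stem cells and gastruloids were each called and had opposite signs, and the difference itself was tested by the interaction. Slc44a5 had an interaction of 4.77, with all Dox libraries below the controls at day 0 and above them at day 5. Phgdh had an interaction of -0.98, with all Dox libraries above the controls at day 0 and below them at day 5. With 1 library left out, Phgdh kept the calls of both days only without Dox 1 or Dox 3 of day 0, while Slc44a5 kept them in every fit.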

How the results depend on the processing

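All 219 called genes kept the sign of their interaction in every alternative in which they were tested (215 of them with a filter of at least 1 CPM in 3 libraries). These fits reuse libraries that chose the genes, so a kept sign is favoured by that choice. The count of 219 became 466 with no filter, 633 with DESeq2, 584 with all 18 libraries in 1 fit and 69 with an absolute interaction of at least 1, and ran from 42 to 288 when each library was left out. The 122 higher became 240, 340, 313 and 30 in the same order (21 to 163 with a library left out), the 97 lower 226, 293, 271 and 39 (21 to 125), and the 138 appearing 265, 343, 318 and 51 (29 to 177). The 2 reversing became 25, 35, 27 and 1, and 4 with limma-voom (1 to 5). The 8 fading became 83, 93, 77 and 3, 16 with library size alone, 19 with the CPM filter and 14 with limma-voom (1 to 23). Calls among the 22 ATF4 targets became 15, 13, 12 and 1, and 7 with library size alone or the CPM filter (2 to 12). Of the 15 serine, folate and proline genes 3 had an absolute interaction of at least 1 beside their call (2 to 9). Calls among synthetases became 9, 10, 10 and 0, and 7 with the CPM filter (0 to 8), calls among lysosomal genes 11, 14, 14 and 0 (1 to 9), and calls among Hox groups 6 to 9 became 1 with limma-voom (0 to 3). RLE factors gave 226 calls, library size alone 232 (143 higher, 89 lower), limma-voom 166 and removal of the ribosomal RNA gene 220. Among genes named in the text limma-voom did not call Ctsa, Cyp26b1, Ehd2, Foxa1, Gm2a, Grn, Hexa, Hoxa5, Hoxa7, Lars, Lif, Nrarp, Pcdh8, Pck2, Pycr1, Sh2d4b, St8sia2, Tbx3 and Zfp981, library size alone did not call Pax6 and Polr1b, the fit with no filter did not call Polr1b and Stat2, and the CPM filter did not call Grn. The interaction of Rnaseh1, -0.89, fell short of an absolute value of 1. The cause of these differences was not tested, and a larger threshold keeps fewer genes by construction.

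With the replicate block, which pairs libraries of 1 number, 421 genes were called (221 higher, 200 lower, 243 appearing, 19 reversing, 54 fading), and with a replicate block within each day 784 (437, 347, 412, 58 and 134). The ATF4 targets gave 11 and 16 calls, the synthetases 10 and 13, the lysosomal genes 12 and 16, and Hox groups 6 to 9 gave 4 within each day. Of the 219 genes 217 were called with the first block and 217 with the second, and Zfp981 was the one gene named in the text that was not called with either. Depth limits the genes at a few counts per library in stem cells, and the small number of libraries limits all calls.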

Other observations

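Some genes outside the lists with a known lysosomal role were among the 122 called higher, and were chosen here after their values were seen. Genes of such a role that were not called or were lower were not counted. The examples therefore add no weight to the lysosomal list. Rragd, a Rag GTPase that recruits mTORC1 to the lysosome, had an interaction of 0.72 (SE 0.11, edgeR adjusted p = 0.00957) and was called whichever 1 of the 12 libraries was left out (edgeR adjusted p at most 0.0439). Flcn, folliculin, which acts on the Rag GTPases, at 0.50 (SE 0.087, edgeR adjusted p = 0.016), lost its call without control 3, Dox 2 or Dox 3 of day 5 (edgeR adjusted p 0.0501 to 0.0642). Ctns, the cystine exporter of the lysosome, at 0.60 (SE 0.12, edgeR adjusted p = 0.0246), kept its call without control 1, control 2, control 3, Dox 1 or Dox 3 of day 0 and lost it without any of the other 7 libraries (edgeR adjusted p 0.0501 to 0.0988). Ppt1, a thioesterase, at 0.43 (SE 0.087, edgeR adjusted p = 0.0304), kept its call without control 1, control 2, control 3 or Dox 3 of day 0 or Dox 1 of day 5 and lost it without any of the other 7 libraries (edgeR adjusted p 0.0533 to 0.117). Gm2a, the GM2 activator, at 0.64 (SE 0.14, edgeR adjusted p = 0.0419), kept its call without control 1 or Dox 3 of day 0 or Dox 1 of day 5 and lost it without any of the other 9 libraries (edgeR adjusted p 0.0733 to 0.138). Grn, progranulin, at 0.60 (SE 0.13, edgeR adjusted p = 0.0475), kept its call without control 1 or Dox 3 of day 0 and lost it without any of the other 10 libraries (edgeR adjusted p 0.0788 to 0.145).

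Other genes called whichever library was left out were, again chosen after their values were seen, the postsynaptic scaffold Shank1 (1.301, SE 0.14, edgeR adjusted p = 0.000818), the neuronal kinesin Kif5a (1.36, SE 0.14, edgeR adjusted p = 0.000818), the tight junction protein F11r (-1.33, SE 0.19, edgeR adjusted p = 0.00641), the protease Capn5 (-1.25, SE 0.18, edgeR adjusted p = 0.00588) and the heparan sulfate proteoglycan Gpc3 (-0.83, SE 0.12, edgeR adjusted p = 0.00767).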
